A study of Mus musculus with 7 samples.

Results

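CXCR3 and CXCR6 are chemokine receptors, and the genes described here are the 2 receptor genes with the genes of their ligands in mouse heart. The 6 genes were chosen by name, with earlier results of these data known. They were Cxcl9, Cxcl10 and Cxcl11, which encode the interferon-inducible ligands of CXCR3, Cxcr3 itself, Cxcl16, which encodes the ligand of CXCR6, and Cxcr6. Each was present as 1 row among the 23420 gene rows of the table. The study compared hearts of mice with a genetic model of immune checkpoint inhibitor (ICI) myocarditis with hearts of control mice, by sequencing total RNA. The 4 control libraries came from Ctla4+/+;Pdcd1-/- mice and the 3 ICI-myocarditis libraries from Ctla4+/-;Pdcd1-/- mice. The loss of Pdcd1, the gene of the checkpoint receptor PD-1, was thus shared by both groups, which differed by 1 copy of Ctla4. All mice were untreated and 3 to 6 weeks old. The tissue label reads whole mouse heart, while the extraction protocol names the ventricle, and the strain is not given in the sources used here.

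CXCR3 is carried by effector T cells of the type 1 kind and by natural killer cells, and its ligands are made by macrophages, dendritic cells, endothelium and other cells exposed to interferon gamma. CXCR6 is found on effector and tissue-resident T cells, and CXCL16 is made as a transmembrane protein by antigen-presenting and stromal cells and can be shed as a soluble chemokine. In inflamed heart these axes are known as routes by which effector T cells are drawn into and held in the tissue. In C57BL/6 mice Cxcl11 carries a frameshift that prevents a functional protein, and the GENCODE annotation of the reference strain lists the gene as a polymorphic pseudogene.

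The 3 CXCR3 ligand genes lie side by side on the minus strand of chromosome 5 within 44.1 kb (GRCm38). Cxcl9 is at chr5:92321347-92328079, Cxcl10 at chr5:92346638-92348889 and Cxcl11 at chr5:92359544-92365485. Cxcr3 is at chrX:101731535-101734269 on the minus strand, Cxcl16 at chr11:70453983-70459984 on the minus strand and Cxcr6 at chr9:123806475-123811760 on the plus strand. The upstream bases of Cxcl9 and Cxcl10 are shown because these 2 ligand genes are neighbours and were both called higher, and those of Cxcr6 because that gene starts inside another gene. They are printed 5′ to 3′ on the strand of the gene, from RefSeq's GRCm38.p6 promoter windows, for Cxcl9 at chr5:92328080-92328329, for Cxcl10 at chr5:92348890-92349139 and for Cxcr6 at chr9:123806227-123806474. Bases inside an annotated exon of the gene itself were left out. Capitals mark matches to a searched motif.
Cxcl9: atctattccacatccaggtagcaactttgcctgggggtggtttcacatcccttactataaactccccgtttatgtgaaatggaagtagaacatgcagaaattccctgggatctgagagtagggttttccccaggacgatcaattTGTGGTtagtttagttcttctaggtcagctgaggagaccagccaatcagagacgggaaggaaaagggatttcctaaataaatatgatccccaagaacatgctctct
Cxcl10: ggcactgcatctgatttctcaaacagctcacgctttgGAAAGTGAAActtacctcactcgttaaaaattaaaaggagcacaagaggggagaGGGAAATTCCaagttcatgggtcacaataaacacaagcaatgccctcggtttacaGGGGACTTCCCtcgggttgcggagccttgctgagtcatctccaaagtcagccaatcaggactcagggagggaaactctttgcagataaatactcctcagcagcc
Cxcr6: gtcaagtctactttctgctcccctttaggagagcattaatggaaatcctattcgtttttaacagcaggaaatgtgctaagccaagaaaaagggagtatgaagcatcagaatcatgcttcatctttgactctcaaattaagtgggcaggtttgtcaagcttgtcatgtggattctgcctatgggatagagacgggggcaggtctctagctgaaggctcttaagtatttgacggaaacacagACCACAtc

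Of the 6 genes, 4 had a promoter entry (Cxcl9, Cxcl10, Cxcr3 and Cxcr6), and the 250 bases before each start were searched on both strands for 5 motifs. These were the gamma-activated site GAS (TTCNNNGAA), the interferon-stimulated response element ISRE (GAAA, any 2 bases, GAAA), the NF-kB consensus, a T-box element (TNACACCT) and a RUNX element (TGTGGT). Cxcl10 held the ISRE letters 213 bases before its start, a match present in 2.98% of the 32851 promoter windows. It also held NF-kB consensus matches 159, 104 and 103 bases before its start, the last 2 overlapping and the nearest matching on both strands. That consensus occurs in 7.25% of windows. Cxcl9 matched only the RUNX element, 106 bases before its start, and Cxcr6 only RUNX on the opposite strand, 10 bases before its start. Cxcr3 matched RUNX on the opposite strand, 110 bases before the RefSeq start, where GENCODE annotates an exon of Cxcr3 itself. RUNX letters are common, at 14% of windows. No match to the GAS or T-box letters, found in 7.02% and 2.68% of windows, lay in these 4 windows.

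Libraries held 20931730 to 39037176 reads assigned to genes. Values are normalized counts, in which each library's reads per gene were scaled by a size factor of that library. The summed counts of 6 cardiomyocyte genes ran from 1114314 to 2119839 in controls and from 678614 to 1206685 in ICI-myocarditis, so heart muscle genes were abundant in every library. Summed T cell genes (10 genes, none at 0 in all libraries) ran from 178 to 1884 in controls and from 7989 to 12147 in ICI-myocarditis. The 1884 was that of control 2, while controls 1, 3 and 4 held 262, 306 and 178. Summed macrophage genes (7, none at 0 in all libraries) ran from 11506 to 15865 and from 46043 to 69357. Summed natural killer cell genes (5) ran from 28.8 to 425.6 and from 961 to 1638, and summed dendritic cell genes (7) from 721 to 2851 and from 2845 to 4478, with control 2 highest among controls for both. Of the 5 natural killer cell genes, 3 (Klrd1, Klrk1 and Eomes) were higher in ICI-myocarditis at an adjusted p below 0.05 (limma), beside 11.7% of all genes tested. Ncr1 and Klrb1c did not pass, and their groups overlapped (log2 fold changes 1.05 and 2.11, limma adjusted p = 0.395 and 0.0934). Summed endothelial genes (6) ran from 25430 to 64043 in controls and from 15952 to 23489 in ICI-myocarditis. The part of these cell types in the results below was not tested. Control 2 was the control nearest to ICI-myocarditis for all 6 genes of the axes. Ctla4 and Pdcd1 could not check the genotype labels: both had reads in every library and were higher in ICI-myocarditis, where counts of Ctla4 were 282, 251 and 373 against 29.2, 113, 69.2 and 41.3 in controls 1 to 4, and those of Pdcd1 were 1481, 1096 and 1340 against 9.07, 244, 3.35 and 2.50. In whole tissue, more cells of a type and more RNA per cell cannot be told apart.

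All 6 genes were higher in ICI-myocarditis than in controls, in every one of the 3 ICI-myocarditis libraries against every control. Each passed limma's test on log2(normalized count + 1) at an adjusted p below 0.05, adjusted over the 15258 genes tested, of which 11.7% were called higher and 4% lower (15.7% in either direction). Every ICI-myocarditis library lay above every control for 17.3% of the genes tested. The log2 fold changes of the 6 genes ran from 2.57 (Cxcl16) to 5.44 (Cxcl10), with a median of 4.07, beside a median of -0.02 over all genes tested. Cxcl10 ranked 35 by fold change among the genes tested, Cxcr3 138, Cxcl9 179, Cxcl11 183, Cxcr6 238 and Cxcl16 651. A gene was tested where 3 or more libraries reached 10 normalized counts, and all 6 passed that filter, although Cxcl11 did so through the 3 ICI-myocarditis libraries and control 2 alone.

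**Figure D1:**
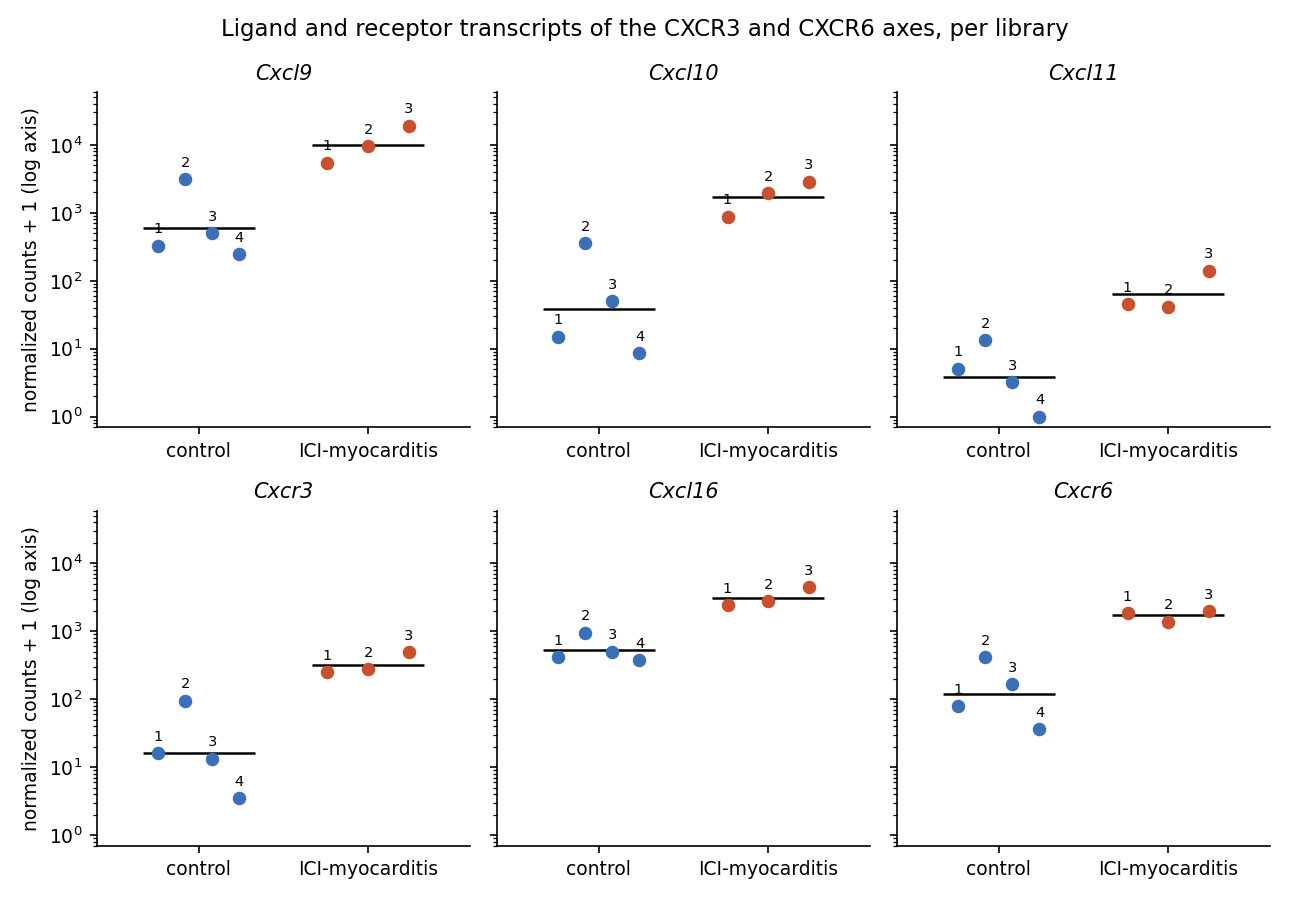
Normalized counts + 1 (log axis) of the 6 genes in each library, with controls in blue, ICI-myocarditis in orange, the replicate number above each point and a line at the mean of the log2 values. The ICI-myocarditis points lie above all controls in each panel, control 2 is the highest control in all 6, and ICI-myocarditis 3 is the highest library in all 6.

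Cxcl9, whose product CXCL9 (MIG) attracts CXCR3-bearing T cells and depends closely on interferon gamma, was the most abundant of the 3 CXCR3 ligand transcripts in every library. Its normalized counts were 326, 3132, 498 and 243 in controls 1 to 4, against 5435, 9542 and 19171 in ICI-myocarditis 1 to 3. Control 2 lay 8.81-fold above the mean of the other controls, and the lowest ICI-myocarditis library was still 1.74-fold above control 2. The group means were 1050 ± 1392 (SD, n = 4) and 11383 ± 7051 (SD, n = 3), with a log2 fold change of 4.07 (limma, SE 0.805, adjusted p = 0.0106) that was 4.87 without control 2. Within ICI-myocarditis the highest library held 3.53-fold more Cxcl9 than the lowest, the widest range of the 6 genes in that group.

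Cxcl10 encodes CXCL10 (IP-10), which also binds CXCR3 and responds to type I interferon and to NF-kB signals as well as to interferon gamma. Its normalized counts were 14.1, 358, 49.1 and 7.51 in controls 1 to 4, against 870, 1949 and 2885 in ICI-myocarditis 1 to 3. Control 2 was 15.2-fold above the mean of the other controls, and the controls spanned 47.7-fold, more than for the other 4 genes with reads in every control. The low end of that span, control 4, rested on 6 recovered reads. The log2 fold change was 5.44 (limma, SE 1.10, adjusted p = 0.0117), the largest of the 6. It differed between fits and was 6.51 without control 2, 4.71 without control 4 and 4.10 by edgeR's quasi-likelihood test on recovered reads.

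Cxcl11, the remaining CXCR3 ligand gene, was the least abundant of the 6. Controls 1 to 4 held 4, 10, 2 and 0 recovered reads, and ICI-myocarditis 1 to 3 held 43, 56 and 183. The corresponding normalized counts were 4.03, 12.3, 2.23 and 0 against 44.0, 40.6 and 140. A count of 0 in control 4 allows up to 3.75 normalized counts (3 reads), for counting error only. The log2 fold change was 4.06 (limma, SE 0.852, adjusted p = 0.0132) with the pseudocount of 1. It was 4.41 with a pseudocount of 0.5, 3.16 with a pseudocount of 4 and 3.96 by edgeR. Without control 2 it was 4.66, and without control 4 it was 3.42. A transcript count does not show whether a functional protein is encoded in these mice.

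Cxcr3 encodes the shared receptor of the 3 ligands. Its normalized counts were 15.1, 93.8, 12.3 and 2.50 in controls 1 to 4, against 249, 278 and 487 in ICI-myocarditis 1 to 3. The receptor was near the floor of detection in control 4, with 2 reads, and 2.65-fold higher in the lowest ICI-myocarditis library than in control 2. The group means were 30.9 ± 42.2 (SD, n = 4) and 338 ± 130 (SD, n = 3), with a log2 fold change of 4.31 (limma, SE 0.912, adjusted p = 0.0137). The value was 5.15 without control 2, 3.57 without control 4 and 3.41 by edgeR.

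Cxcl16, whose product exists as a membrane-bound adhesion ligand and as a shed chemokine for CXCR6, had the smallest fold change of the 6. Normalized counts were 417, 954, 498 and 374 in controls 1 to 4, against 2424, 2769 and 4478 in ICI-myocarditis 1 to 3. Control 2 was 2.22-fold above the mean of the other controls, the smallest such distance of the 6 genes. The group means were 561 ± 267 (SD, n = 4) and 3224 ± 1100 (SD, n = 3), with a log2 fold change of 2.57 (limma, SE 0.346, adjusted p = 0.00365). Over the other ways of processing the data the fold change ran only from 2.31 to 2.86.

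Cxcr6 encodes the receptor for CXCL16. Its normalized counts were 77.6, 417, 166 and 35 in controls 1 to 4, against 1843, 1378 and 1970 in ICI-myocarditis 1 to 3. The ICI-myocarditis libraries differed by 1.43-fold, the narrowest range of the 6 genes, while controls spanned 11.9-fold. The group means were 174 ± 171 (SD, n = 4) and 1730 ± 311 (SD, n = 3), with a log2 fold change of 3.85 (limma, SE 0.687, adjusted p = 0.00750). It was 4.46 without control 2.

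The authors' deposited table gives the same direction for all 6 genes with an adjusted p below 0.05, a threshold that 12.9% of its 16882 genes with an adjusted p passed in the higher direction. The log2 fold changes in the authors' deposited table were 3.44 for Cxcl9, 4.15 for Cxcl10, 4.02 for Cxcl11, 3.45 for Cxcr3, 2.52 for Cxcl16 and 3.31 for Cxcr6. limma, which averages log2 values, gave a larger fold change than that table for each of the 6. By edgeR and by DESeq2 on recovered reads all 6 were called as well, beside 10.3% and 14.2% of genes called higher. Without control 2, all 6 were called, beside 14.9% of genes called higher. Without ICI-myocarditis 3, the library highest for all 6, Cxcl9, Cxcl16 and Cxcr6 were called, beside 5.51% of genes called higher. In that fit Cxcl10, Cxcl11 and Cxcr3 missed the threshold, with log2 fold changes of 5.06, 3.49 and 4.01 (limma adjusted p = 0.0514, 0.0728 and 0.0620).

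**Figure D2:**
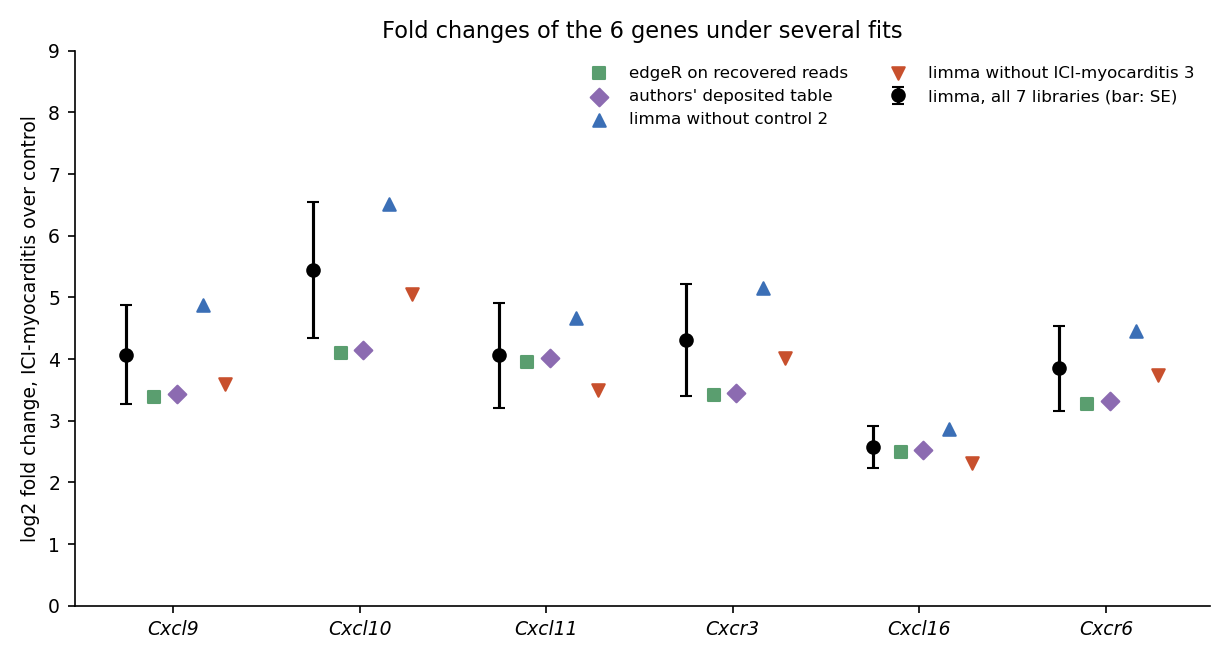
Log2 fold changes of ICI-myocarditis over control for the 6 genes by limma on all 7 libraries (black, bar is the SE), by edgeR on recovered reads, in the authors' deposited table, and by limma without control 2 or without ICI-myocarditis 3. All values are above 0, and the fits are farthest apart for Cxcl10, from 4.10 to 6.51, and closest for Cxcl16, from 2.31 to 2.86.

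Levels were compared between genes per kilobase of the longest protein-coding transcript in GENCODE M21. That length was 1353 of 2252 annotated exon bases for Cxcl10 and 1581 of 3794 for Cxcl11, but 2889 of 3016 for Cxcl9. If reads were counted over all exons, levels per kb and ligand shares of Cxcl10 and Cxcl11 may be too high beside Cxcl9. In ICI-myocarditis, normalized counts per kb were 3940 ± 2440 for Cxcl9, 1405 ± 745 for Cxcl10, 1194 ± 407 for Cxcl16, 907 ± 163 for Cxcr6, 195 ± 75.1 for Cxcr3 and 47.3 ± 35.6 for Cxcl11 (SD, n = 3 each). The ranges of Cxcl9 and Cxcl10 over the 3 libraries overlapped, but Cxcl9 was above Cxcl10 within each library. The ranges of Cxcl10, Cxcl16 and Cxcr6 also overlapped, and the order of those genes differed between libraries. Cxcr3 lay below those 4 genes in every library and Cxcl11 below Cxcr3. In controls the means per kb were 363 ± 482 for Cxcl9, 208 ± 98.9 for Cxcl16, 91.2 ± 89.6 for Cxcr6, 79.2 ± 124 for Cxcl10, 17.9 ± 24.4 for Cxcr3 and 2.94 ± 3.40 for Cxcl11 (SD, n = 4 each). Each of these neighbours overlapped in range, although Cxcr3 lay below Cxcl10, and Cxcl11 below Cxcr3, within every control. Cxcl16 was the highest of the 6 per kb in controls 1, 3 and 4, and Cxcl9 was the highest in control 2 and in all ICI-myocarditis libraries.

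Among the 3 CXCR3 ligand transcripts, Cxcl9 made up 89.7%, 79.9%, 82.0% and 93.8% of their summed level per kb in controls 1 to 4, against 73.7%, 69.3% and 74.9% in ICI-myocarditis 1 to 3. Cxcl10 made up 8.30%, 19.5%, 17.3% and 6.19% in controls and 25.2%, 30.2% and 24.1% in ICI-myocarditis. The share of Cxcl10 was thus higher, and that of Cxcl9 lower, in each ICI-myocarditis library than in any control. Cxcr6 exceeded Cxcr3 per kb in every library, by 4.04-fold to 12.7-fold in controls and by 3.67-fold to 6.73-fold in ICI-myocarditis.

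Whether the genes changed by different amounts was tested on log2 ratios within each library, for 9 ratios. The test was an exact permutation test (two-sided) over the 35 possible assignments of libraries to groups, which cannot give a p below 0.0286. No ratio passed, before or after adjustment over the 9, so no difference in the size of the rise was shown for the pairs compared. A ratio alone at that smallest p could not have passed after the adjustment, so failure after adjustment says little. The log2 ratio of Cxcl10 to Cxcl9 averaged -3.93 ± 0.838 over the controls (SD, n = 4) and -2.55 ± 0.233 over the ICI-myocarditis libraries (SD, n = 3). The groups did not overlap and the means differed by 1.37, with an exact permutation p of 0.0857 (0.154 adjusted over the 9 ratios). The ratio of Cxcl16 to Cxcl9 averaged -1.68 ± 0.475 in ICI-myocarditis against -0.18 ± 1.05 in controls, and control 2, at -1.71, lay inside the ICI-myocarditis range (exact permutation p = 0.0857, adjusted 0.154). The difference of those means was -2.01 without control 2. The ratio of Cxcl11 to Cxcl9 was -7.27 ± 0.888 in controls and -7.28 ± 0.492 in ICI-myocarditis (exact permutation p = 0.971), and the difference of means changed with the pseudocount, to 0.34 at 0.5 and -0.90 at 4. Between the receptors, the log2 ratio of Cxcr6 to Cxcr3 was 2.86 ± 0.760 in controls and 2.40 ± 0.443 in ICI-myocarditis (exact permutation p = 0.400).

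The receptor genes were set against Cd3d, Cd3e and Cd3g, which encode the invariant chains of the T cell receptor complex. Normalized counts of Cd3e, for example, were 20.2, 250, 13.4 and 6.26 in controls 1 to 4, against 922, 1277 and 1992 in ICI-myocarditis. The log2 ratio of Cxcr6 to the mean of the CD3 genes was 2.71, 1.43, 3.37 and 1.83 in controls 1 to 4, against 0.99, 0.79 and 0.80 in ICI-myocarditis 1 to 3. Cxcr6 was therefore lower relative to CD3 in each ICI-myocarditis library than in any control, with group means of 0.86 and 2.33 (exact permutation p = 0.0571, adjusted 0.154), while its own count was higher. For Cxcr3 the ratio was -0.53 ± 0.821 in controls and -1.54 ± 0.343 in ICI-myocarditis, with control 4, at -1.53, inside the ICI-myocarditis range (exact permutation p = 0.143, adjusted 0.184). Neither ratio passed the test, and the CD3 genes of controls 1, 3 and 4 were low, between 6.26 and 23.4 normalized counts.

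The ligand genes were set against 5 macrophage genes: Emr1 (F4/80), Cd68, Csf1r, Lyz2 and C1qa. The log2 ratio of Cxcl9 to their mean was -1.98, 0.87, -1.55 and -2.59 in controls 1 to 4, against 0.21, 0.88 and 1.22 in ICI-myocarditis 1 to 3. Control 2 thus lay among the ICI-myocarditis libraries, and the other 3 controls lay below them (difference of means 2.08, exact permutation p = 0.0857, adjusted 0.154). Without control 2 the difference was 2.81. For Cxcl10 the ratio was -6.42, -2.26, -4.87 and -7.43 in controls and -2.43, -1.42 and -1.51 in ICI-myocarditis, a difference of 3.46 with the same p. It was 4.45 without control 2 and 2.73 without control 4. For Cxcl16 it was -1.50 ± 0.470 in controls and -0.91 ± 0.040 in ICI-myocarditis, a difference of 0.59 (exact permutation p = 0.143, adjusted 0.184). Control 2, at -0.85, lay above all 3 ICI-myocarditis libraries in that ratio, and without it the difference was 0.80.

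**Figure D3:**
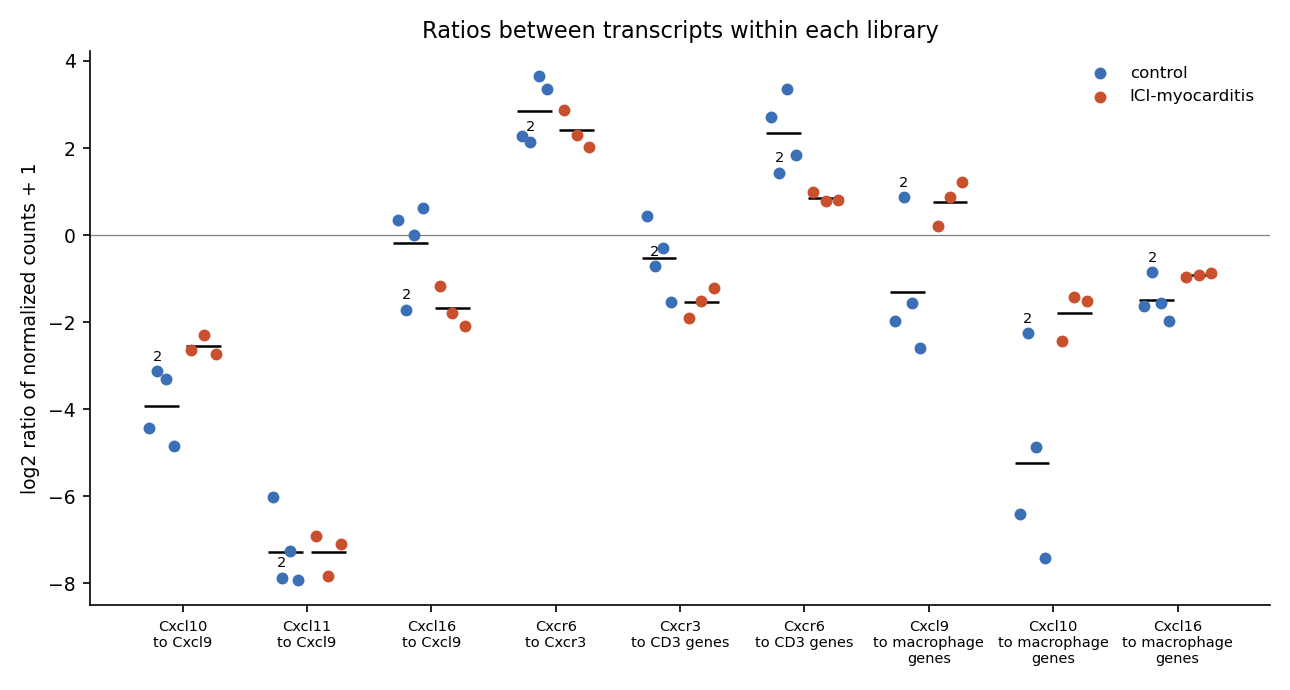
Log2 ratios of normalized counts + 1 within each library for the 9 ratios tested, with controls in blue, ICI-myocarditis in orange, group means as lines and control 2 marked by its number. Only the ratios of Cxcl10 to Cxcl9 and of Cxcr6 to the CD3 genes separate the groups fully, and control 2 lies inside or above the ICI-myocarditis points in the ratios of all 3 ligands to the macrophage genes.

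Genes that share genomic sequence with the 6 were examined because the use of strand in counting is not given in the sources used here. Cxcl10 and Cxcl11 lie wholly inside Art3, an ADP-ribosyltransferase gene on the opposite strand, and 133 exon bases of Cxcl10 (5.91%) are shared with exons of Art3. Art3 was abundant, at 6819 to 11577 normalized counts in controls and 4734 to 7554 in ICI-myocarditis, and did not pass (log2 fold change -0.44, limma adjusted p = 0.308). Cxcl9 and Cxcr3 overlap no other annotated gene. Cxcr6 lies wholly inside Fyco1, a gene of autophagosome transport on the opposite strand, and shares no exon bases with it. Fyco1 fell from 23262 ± 4458 to 10534 ± 2266 normalized counts, a drop of 1.14 on the log2 scale (limma, SE 0.278, adjusted p = 0.0236), opposite to Cxcr6. Cxcl16 shares 552 exon bases (18.3%) with Zmynd15 on the opposite strand. Zmynd15 counts were 121, 357, 124 and 68.8 in controls 1 to 4, against 634, 877 and 1055 in ICI-myocarditis, with a log2 fold change of 2.59 (limma, SE 0.482, adjusted p = 0.00866) beside 2.57 for Cxcl16. Without a known strand setting, reads from the stretch that Cxcl16 and Zmynd15 share cannot be told apart. Over all annotated exons of Cxcl11, 1582 of 3794 bases (41.7%) are shared with a processed pseudogene, Gm2673, which is not a row of the table. Xcr1, a chemokine receptor gene of cross-presenting dendritic cells next to Fyco1, rose by 3.90 (limma adjusted p = 0.00392). It is 1 of the 7 dendritic cell genes summed above. Of these, 4 were called higher and 0 lower, beside 11.7% and 4% of all genes tested. The other 3, Clec9a, Zbtb46 and Cd209a, did not pass, with log2 fold changes of 1.09, -0.47 and 0.23 (limma adjusted p = 0.118, 0.350 and 0.830).

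**Figure D4:**
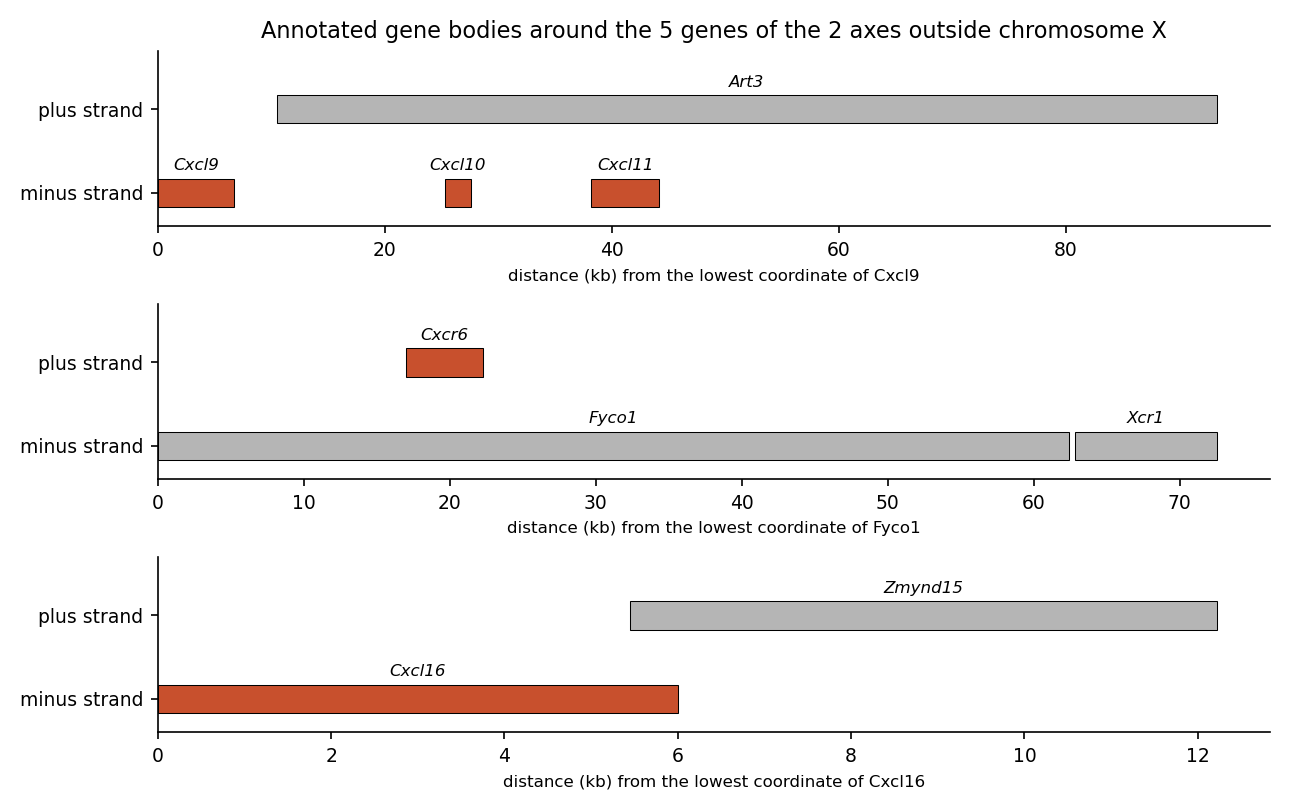
Annotated gene bodies (GENCODE M21) by strand around 5 of the 6 genes, which are drawn in orange, with neighbouring genes in grey and Gm2673 not drawn. The horizontal axes give distance in kb from the lowest coordinate of Cxcl9, Fyco1 or Cxcl16. Cxcl10 and Cxcl11 lie inside Art3, Cxcr6 lies inside Fyco1, and Cxcl16 and Zmynd15 overlap at one end.

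Genes that induce the CXCR3 ligands were read as a list of 12, of which 6 were called higher and 0 lower, beside 11.7% and 4% of all genes tested, with a median log2 fold change of 0.84. Irf1, a transcription factor gene induced by interferon gamma, rose by 2.29 (limma adjusted p = 0.0123), Tnf, a cytokine that acts with interferon gamma on these genes, by 3.94 (0.0152) and its receptor gene Tnfrsf1b by 2.41 (0.00392). Ifng, the gene of interferon gamma itself, and Jak2, a kinase gene of its receptor, were also called, at 5.96 and 0.82. The genes of the interferon gamma receptor chains did not pass: Ifngr1 had a log2 fold change of 0.31 (limma adjusted p = 0.367) and Ifngr2 of -0.47 (0.494). Neither did Nfkb1 (0.43), Rela (0.33), Tnfrsf1a (0.86, limma adjusted p = 0.0543) or Jak1 (-0.02). Without ICI-myocarditis 3, 3 of the 12 were called higher, beside 5.51% of all genes.

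Genes that process or remove the ligands were read as a list of 10, of which 9 were tested, 2 were called higher and 0 lower, beside 11.7% and 4% of all genes tested, with a median log2 fold change of 0.59. The sheddases of CXCL16, encoded by Adam10 and Adam17, had log2 fold changes of 0.21 and 0.49 and did not pass (limma adjusted p = 0.540 and 0.118). Dpp4, whose product trims and inactivates CXCR3 ligands, lay between 167 and 482 normalized counts in controls and between 340 and 532 in ICI-myocarditis, with groups that overlapped (log2 fold change 0.65, limma adjusted p = 0.269). Cxcr7 (Ackr3), an atypical receptor that removes CXCL11, had a log2 fold change of -0.26 (limma adjusted p = 0.464). Pf4, whose product also binds CXCR3, had one of -0.86 (limma adjusted p = 0.113). The 2 called genes were Sdc4, a heparan sulfate proteoglycan gene, which rose by 1.68 (limma adjusted p = 0.00363), and Ccbp2 (Ackr2), a scavenger receptor gene for inflammatory CC chemokines, which rose by 1.64 (0.0150). Without ICI-myocarditis 3, 1 was called higher, beside 5.51% of all genes. Darc (Ackr1) was too low to be tested, at 3.75 to 21.4 normalized counts.

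Of 19 genes that act downstream of chemokine receptors, 11 were called higher and 0 lower, beside 11.7% and 4% of all genes tested, with a median log2 fold change of 2.10. The called genes included Rac2, a GTPase of cell migration (3.53, limma adjusted p = 0.00300), Rassf5, which links receptors to integrins (2.45, 0.00398), Pik3r5 (3.01), Dock2, Coro1a (2.80) and the integrin genes Itgal (3.99) and Itgb2 (3.29). Among the G protein genes on the same list, Gng2 was called (2.10, limma adjusted p = 0.00501). Gnai2, Gnai3 and Gnb1 did not pass, with log2 fold changes of 0.43, 0.34 and 0.15. Whether the rise of the called genes follows the T cell and macrophage gene counts given above was not tested.

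Transcription factor and cytokine receptor genes tied to effector and resident T cells were listed as 11, of which 10 were tested (Zfp683 was not analysed here), 5 were called higher and 0 lower (median log2 fold change 2.09), beside 11.7% and 4% of all genes tested. Tbx21, encoding T-bet, which activates Cxcr3, had 5.04, 48.1, 12.3 and 2.50 normalized counts in controls 1 to 4, against 189, 226 and 332 in ICI-myocarditis 1 to 3, a log2 fold change of 4.49 (limma, SE 0.791, adjusted p = 0.00716). Eomes rose by 3.85, Stat4 by 3.89, Il18r1 by 3.45 and Runx3 by 2.88 (limma adjusted p = 0.0237, 0.0121, 0.0121 and 0.0109). Prdm1, encoding Blimp-1, which supports tissue residency, had a log2 fold change of 1.31 (limma adjusted p = 0.154), and Bhlhe40 of 0.09 (0.861). Without ICI-myocarditis 3, 1 of the list was called higher, beside 5.51% of all genes.

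**Figure D5:**
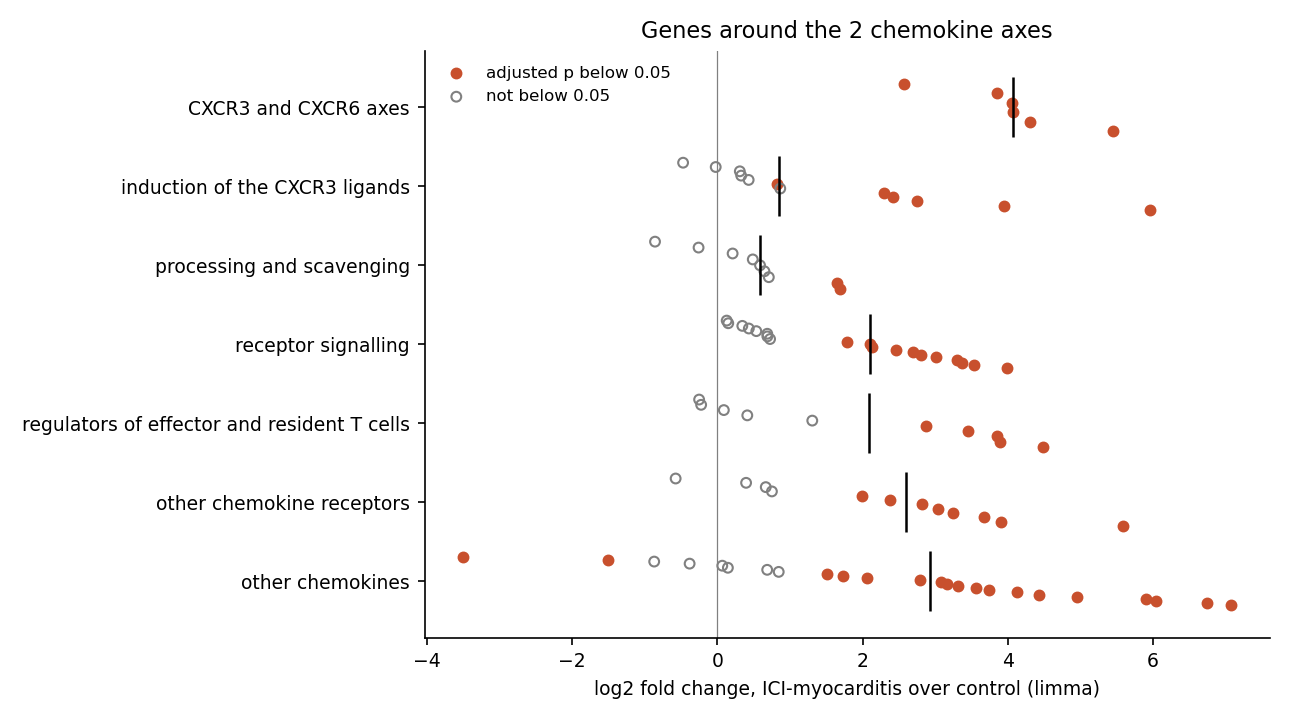
Log2 fold changes (limma, ICI-myocarditis over control) of the tested genes of each list, with filled points for an adjusted p below 0.05, open points for the rest and a line at each list's median. The 6 genes of the axes have a median of 4.07, and the lists around them have medians from 0.59 (processing and scavenging) to 2.93 (other chemokines).

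The genes whose pattern over the 7 libraries was most like each of the 6 were found by the root mean square difference of log2 values, after each gene was centred on its own mean, among all tested genes outside the 6. Cxcl16 had the closest matches: Tbxas1 (0.071 log2 units), Pak1 (0.102) and Nckap1l (0.107). Cxcr3 was nearest to Ipcef1 (0.179), Icos (0.219) and Ildr1 (0.244). Cxcr6 was nearest to Gpr174 (0.248), Cysltr2 (0.257) and Skap1 (0.268). Cxcl9 was nearest to Kcna3 (0.265), Itgal (0.282) and Ptpn22 (0.303), and Cxcl11 to Fut7 (0.292), Niacr1 (0.341) and Il7r (0.416). Cxcl10 had the most distant matches, Mefv (0.361), Ifng (0.445) and Dnase1l3 (0.467). Among the 6 themselves, Cxcl11 and Cxcr3 were closest (0.444) and Cxcl10 and Cxcl16 farthest apart (1.87).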

How the data were processed

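Heart RNA was sequenced as 4 control and 3 ICI-myocarditis libraries of stranded, paired-end total RNA, per the labels' protocols. The deposited per-library signal is read counts divided by a size factor, as its values show: 100% of values were whole multiples (within 0.05) of the smallest step in their column. For control 1 the step was 1.01, so near 1 that recovery is less certain there. STAR 2.7.3 and GRCm38 are named in the submitters' processing notes. The counting program, its annotation and its strand setting are not given in the sources used here. Per the file headers, the authors' deposited table also holds the log2 fold change and standard error per gene, the test statistic (a score) and raw and adjusted p-value.

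The principal test was limma (3.58.1, in R 4.3.3), with trend and robust variance and Benjamini-Hochberg adjustment, applied to log2(normalized count + 1) of genes that reached 10 normalized counts in 3 or more libraries. edgeR (4.0.16) and DESeq2 (1.42.0) on recovered reads were alternatives, as were other pseudocounts, filters and scalings, limma-voom, a replicate block and leaving out each library. The fits were tested on simulated data, where limma, edgeR and DESeq2 each made more wrong calls than the threshold allows and DESeq2 made the most. That was a single simulation with the same dispersion for every gene and no outlying library. It cannot tell how often these fits err in the present data. Ratios used an exact permutation test on the absolute difference of means. The labels count mice per group but do not tie each library to 1 animal, so p-values measure only the spread between these libraries, which may be technical. The members, gene lists and ratios were chosen with earlier results of these data known, and the motifs after the promoter sequences had been read. Named genes are the 6 members, Ctla4 and Pdcd1, overlapping or adjacent genes, list members with the lowest p or a direct action on the axes, and, for likeness, the 3 nearest genes per member, passing over predicted genes. Other list genes named were chosen after their values were seen. The single values of some list genes are not reported here.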

Additional observations from a re-analysis of the deposited data

How the results depend on the processing

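The count of genes called, 2397 with limma on all 7 libraries, was 4038 by limma-voom with quality weights and ran from 986 (without ICI-myocarditis 3) to 3340 (without control 2) when 1 library was left out. The 6 genes stayed above 0 in every alternative. Leaving out 1 library gave log2 fold changes from 4.71 to 6.51 for Cxcl10, 3.42 to 4.66 for Cxcl11 and 3.57 to 5.15 for Cxcr3. These genes missed the threshold only without ICI-myocarditis 3, and every fit without 1 library was on fewer samples. Cxcl9, Cxcl16 and Cxcr6 passed in all 18 alternatives. Cxcl11 was not tested where at least 50 normalized counts were required. Scaling by library size alone moved the median of all genes to 0.13 and left the 6 calls in place. The difference of the log2 ratio of Cxcl11 to Cxcl9, near 0, was 0.34 with a pseudocount of 0.5 and -0.90 with a pseudocount of 4, and ran from -0.23 to 0.41 when 1 library was left out. The tests of ratios cannot reach a p below 0.0667 without an ICI-myocarditis library or 0.100 without a control. With the replicate number as a block, where control 4 drops out of the comparison, 1780 genes were called and Cxcl10 was at 4.71. The labels do not say that the replicate number pairs samples. Deviations of same-numbered libraries had correlations of -0.27, -0.21 and -0.08, and no ICI-myocarditis library correlated best with its own number. Correlations of deviations centred within such small groups cannot exclude a pairing. Depth limits Cxcl11 and, in control 4, Cxcr3 (2 reads) and Cxcl10 (6 reads). Counts for the pathway lists without control 2 or ICI-myocarditis 3 were chosen after seeing the data. Without control 2 they were 7 for induction, 2 for processing, 13 for signalling and 6 for the T cell regulators, in a fit that called 14.9% of all genes higher. The causes of these shifts were not tested.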

Other observations

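Of 29 other chemokine genes listed, 24 were tested, 16 were called higher and 2 lower in ICI-myocarditis, beside 11.7% and 4% of all genes tested, with a median log2 fold change of 2.93 (limma). Among those called higher, Ccl1, Ccl17 and Cxcl13 reached 10 normalized counts in ICI-myocarditis libraries only. They therefore entered the test through the group where they were high. Ccl8, a monocyte chemoattractant gene, had the lowest p and rose by 7.08 (limma adjusted p = 0.00251). Ccl4 and Ccl3, which encode macrophage inflammatory proteins, rose by 6.74 and 5.90 (limma adjusted p = 0.00412 and 0.00698). The 2 genes called lower were Ccl24, an eotaxin gene, from 53.4, 49.3, 50.2 and 72.6 in controls to 2.05, 15.2 and 1.53 in ICI-myocarditis, and Cxcl12, the ligand gene of CXCR4, from 12870, 9431, 7175 and 5161 to 1858, 4200 and 3054. On the log2 scale Ccl24 was at -3.50 (limma adjusted p = 0.00814) and Cxcl12 at -1.51 (limma adjusted p = 0.0251). Without ICI-myocarditis 3, 10 of these genes were called higher and 1 lower, beside 5.51% of all genes called higher.

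Of 16 other chemokine receptor genes, 12 were tested, 8 were called higher and 0 lower, beside 11.7% and 4% of all genes tested, with a median log2 fold change of 2.60 (limma). Ccr8, a receptor gene of regulatory and type 2 T cells, had 3.02, 8.63, 0 and 0 normalized counts in controls 1 to 4 and 96.2, 104 and 167 in ICI-myocarditis, a log2 fold change of 5.58 (limma, SE 0.812, adjusted p = 0.00405). Among the called receptor genes, Ccr8 and Ccr4 reached 10 normalized counts in ICI-myocarditis libraries only. They therefore entered the test through the group where they were high. Cxcr4 and Cxcr5 had log2 fold changes of 0.67 and 0.75 and did not pass (limma adjusted p = 0.184 and 0.187). Without ICI-myocarditis 3, 3 of the receptor genes were called higher, beside 5.51% of all genes. Ccl8, Ccl4 and Ccr8 were named for their low p, and the other genes here after their values were seen.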
